A study of Homo sapiens with 32 samples.

Results

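The genes described here are 10 parts of the machinery that writes and reads N6-methyladenosine (m6A) in mRNA: the writer subunits METTL3, METTL14, WTAP, VIRMA, ZC3H13 and RBM15, and the YTH-domain readers YTHDF1, YTHDF2, YTHDF3 and YTHDC1. They were chosen by name from the 14427 named genes that had reads, and each was followed through its counted transcript with the highest summed reads. Their total reads, their reads with T-to-C conversions and the share of converted reads were compared across SLAM-seq libraries of HCT116, an established human colorectal carcinoma line. In SLAM-seq, cells take up 4-thiouridine (s4U), and the positions where it was built into RNA are read as T-to-C conversions, so that reads with a conversion, called labelled reads here, stand for RNA made during the pulse. The series asked how the RNA-binding protein IGF2BP3 acts on RNA during the unfolded protein response.

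All cells carried a doxycycline-inducible OsTIR1, the plant receptor that delivers degron-tagged proteins to the proteasome when auxin is present. Tagged cells also carried mAID, a small auxin-inducible degron, on both endogenous copies of IGF2BP3, while parental cells had OsTIR1 and no tag. Every well, controls included, received doxycycline at 200 ng/mL for 24 h and s4U at 250 µM for 2 h before collection. Auxin (IAA) was given at 500 µM for 9 h and tunicamycin, which blocks N-linked glycosylation in the endoplasmic reticulum (ER), at 5 µg/mL for 5 h, with DMSO as the vehicle. The 8 groups of 4 libraries were tagged cells stressed with auxin, stressed with vehicle, unstressed with auxin and unstressed with vehicle, and parental cells in the same 4 states. A replicate was 1 well of a plate, and p-values therefore describe how much these wells varied, which may be technical. The labels do not say whether the tagged line is a single clone, and the mRNA counts do not show whether IGF2BP3 protein was removed.

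METTL3 is the catalytic subunit of the m6A writer and METTL14 its RNA-binding partner. WTAP joins this pair to the larger complex, VIRMA is its scaffold, ZC3H13 is known from mouse cells to hold the complex in the nucleus, and RBM15 binds RNA and brings the complex to it. Methylated mRNA is bound in the cytoplasm by the closely related proteins YTHDF1, YTHDF2 and YTHDF3, of which YTHDF2 is best known for recruiting the CCR4-NOT deadenylase and speeding mRNA decay. YTHDC1 reads m6A in the nucleus and acts in splicing and export. IGF2BP3, the tagged protein, has itself been described as an m6A reader.

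Libraries held between 0.987 M and 6.98 M reads of named genes (median 3.54 M), and labelled reads made up 8.88% to 13.4% of them. The smallest library, replicate 1 of stressed auxin-treated parental cells, stood apart: it covered 15.1 T positions per read, against 20.3 to 24.1 elsewhere. Stress effects of the 10 genes that passed with it in the comparison are also given without it. Labelling of whole libraries was lower under stress: conversions averaged 0.806% of covered T positions in stressed and 1.13% in unstressed vehicle-treated parental cells. The labels were checked with DDIT3, which encodes the stress factor CHOP and had 863 ± 69.2 CPM in stressed and 25.1 ± 2.80 CPM in unstressed vehicle-treated parental cells (SD, n = 4 each). EPCAM (124 to 435 CPM) and KRT18 (485 to 1040 CPM), markers of epithelium, were read in all 32 libraries. CDX2, a marker of intestinal epithelium, was also read in all 32 libraries (19.5 to 38 CPM). VIL1, another marker of intestinal epithelium, PTPRC of leukocytes and COL1A2 of fibroblasts were not among the named genes with reads. COL1A1, also a fibroblast marker, had 18.4 to 59.7 CPM. CPM are counts per 1e6 reads on TMM-scaled library sizes.

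The promoters of the readers that changed with stress are shown because these genes are compared below. RefSeq's promoter table (GRCh38.p14) matched 8 of the 10 genes, all but VIRMA and YTHDF3. Capitals mark matches to the CCAAT box (CCAAT on either strand) and to the cyclic AMP response element (TGACGTCA, which reads the same on both strands).
YTHDF1, chr20:63216082-63216381, minus strand: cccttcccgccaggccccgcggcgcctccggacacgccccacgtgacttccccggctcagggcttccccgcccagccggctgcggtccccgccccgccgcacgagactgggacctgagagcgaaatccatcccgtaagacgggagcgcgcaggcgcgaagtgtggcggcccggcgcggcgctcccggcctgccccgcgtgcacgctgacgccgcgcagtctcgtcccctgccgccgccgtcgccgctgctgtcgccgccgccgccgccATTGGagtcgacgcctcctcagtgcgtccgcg
YTHDF2, chr1:28736374-28736673, plus strand: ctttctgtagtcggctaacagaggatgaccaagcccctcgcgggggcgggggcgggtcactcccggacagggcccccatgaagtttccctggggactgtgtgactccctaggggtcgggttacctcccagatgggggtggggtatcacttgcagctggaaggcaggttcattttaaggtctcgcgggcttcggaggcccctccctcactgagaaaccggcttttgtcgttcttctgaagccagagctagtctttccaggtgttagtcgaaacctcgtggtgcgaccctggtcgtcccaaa
YTHDC1, chr4:68350041-68350340, minus strand: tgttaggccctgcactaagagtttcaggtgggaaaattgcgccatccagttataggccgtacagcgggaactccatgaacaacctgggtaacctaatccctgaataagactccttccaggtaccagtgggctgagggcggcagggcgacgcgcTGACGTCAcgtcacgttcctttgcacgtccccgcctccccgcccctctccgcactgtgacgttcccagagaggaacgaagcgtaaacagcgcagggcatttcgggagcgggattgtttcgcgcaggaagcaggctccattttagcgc
CCAAT was found in the promoters of METTL3, METTL14, WTAP, ZC3H13, RBM15 and YTHDF1, 6 of 8, and in 34.6% of the 35116 promoters of the table. TGACGTCA was found in YTHDC1 alone among the 8, starting 97 bases before the transcript start, and in 1.85% of all promoters. The ER stress response element, whose first letters are a CCAAT box, was found in 0 of the 8 and in 0.0769% of all promoters. The core of the amino acid response element, TTGCATCA, was found in 0 of the 8 and in 0.866%. The YTHDF1 match to CCAAT started 18 bases after the transcript start. All these are matches of letters and describe no binding.

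Positions are in hg38 (GRCh38). The readers lie on chromosome 20 (YTHDF1, 63195429 to 63216131), chromosome 1 (YTHDF2, 28736624 to 28769775), chromosome 8 (YTHDF3, 63168553 to 63212788) and chromosome 4 (YTHDC1, 68310387 to 68350090). The writer genes are METTL3 (chromosome 14, 21498138 to 21511340), METTL14 (chromosome 4, 118685392 to 118715430), WTAP (chromosome 6, 159726693 to 159756319), VIRMA (chromosome 8, 94487689 to 94553469), ZC3H13 (chromosome 13, 45954465 to 46052746) and RBM15 (chromosome 1, 110339377 to 110346677). The libraries are 3′ libraries, and the counted regions are exonic 3′ ends, from 120 bases in METTL3 to 3712 bases in YTHDC1. For METTL3, WTAP, RBM15, YTHDF1, YTHDF2 and YTHDC1 their lengths matched the annotated 3′ UTR of the same transcript in GENCODE 29 within 3 bases. METTL14 was counted over 633 bases of an annotated 5134, and it had the fewest reads, 1081 over all libraries and 13 to 82 in a library. YTHDF2 had the most, 23298. All 10 genes passed the filter on low counts in each of the 3 readings.

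Total reads of all 3 cytoplasmic readers fell with stress when the stress effect was averaged over the 4 backgrounds (each line with and without auxin). YTHDF3 fell by 0.47 ± 0.06 (log2 fold change ± SE), YTHDF2 fell by 0.29 ± 0.05 and YTHDF1 fell by 0.17 ± 0.05, with edgeR adjusted p of 1.08e-07, 2.2e-05 and 0.0192. The nuclear reader YTHDC1 rose by 0.14 ± 0.05 (edgeR adjusted p 0.033), and no writer subunit passed in the reported fit of all libraries. Without the smallest library YTHDF3 stood at -0.44, YTHDF2 at -0.29, YTHDF1 at -0.16 and YTHDC1 at 0.16 (edgeR adjusted p 8.64e-10, 8.7e-07, 0.00911 and 0.00612), and METTL14 passed as well. Here and below, "edgeR adjusted p" is the p of edgeR's quasi-likelihood F-test after Benjamini-Hochberg adjustment over all genes tested, with a threshold of 0.05 and 16 stressed against 16 unstressed libraries in this average. So 4 of the 10 genes passed, 1 higher and 3 lower, against 21.9% of all 11186 genes tested (11.1% higher and 10.8% lower). The median log2 fold change of the 10 genes was -0.13, and that of all genes tested 0.01. In bulk libraries, fewer cells of a type and less RNA per cell cannot be told apart.

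YTHDF3, which works with the other YTHDF proteins on methylated mRNA, had the largest change of the readers in the average. In parental cells with vehicle it had 114, 97.0, 104 and 93.6 CPM in stressed libraries, against 147, 164, 136 and 147 CPM in unstressed ones. With auxin, parental cells had 82.6, 126, 124 and 102 CPM stressed and 146, 173, 152 and 151 CPM unstressed. In neither pair of groups did the libraries overlap. The log2 fold changes were -0.54 ± 0.11 with vehicle (edgeR adjusted p 0.00139) and -0.50 ± 0.11 with auxin (0.00412), and the value with auxin was -0.40 ± 0.10 (0.00603) without the smallest library. With only the 2 compared groups fitted, the call with auxin ended (-0.50, edgeR adjusted p 0.346). Tagged cells with vehicle had 101, 105, 107 and 130 CPM stressed and 152, 132, 138 and 175 CPM unstressed. Tagged cells with auxin had 97.5, 97.6, 90.6 and 94.4 CPM stressed and 131, 128, 125 and 117 CPM unstressed. Here too every stressed library lay below every unstressed one, with log2 fold changes of -0.43 ± 0.11 (edgeR adjusted p 0.0192) with vehicle and -0.40 ± 0.11 (0.0367) with auxin. The calls in tagged cells depended on single libraries. With vehicle the call ended without replicate 1, 2 or 3 of the stressed or replicate 1 or 4 of the unstressed libraries, and with auxin without any of the 8 libraries, with edgeR adjusted p up to 0.135 and up to 0.113. With auxin it also ended with a replicate block (0.0502) or no filter on low counts (0.061). The fold changes without them lay between -0.51 and -0.34, and between -0.43 and -0.38.

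YTHDF2, the decay-promoting reader, was lower under stress in 3 of the 4 backgrounds. Parental cells with vehicle had 209, 181, 182 and 179 CPM stressed and 216, 235, 242 and 279 CPM unstressed, without overlap (log2 fold change -0.37 ± 0.10, edgeR adjusted p 0.00918). That call ended without replicate 4 of the unstressed libraries, the highest (-0.29, edgeR adjusted p 0.0607). Tagged cells with vehicle had 175, 163, 160 and 155 CPM stressed and 184, 220, 222 and 213 CPM unstressed, and with auxin 175, 181, 169 and 200 CPM stressed and 215, 253, 225 and 232 CPM unstressed. Neither pair overlapped, and the log2 fold changes were -0.36 ± 0.10 (edgeR adjusted p 0.0234) and -0.35 ± 0.10 (0.0295). With vehicle the call ended without replicate 2, 3 or 4 of either group (edgeR adjusted p up to 0.0956). With auxin it ended without replicate 1, 2 or 3 of the stressed or 2, 3 or 4 of the unstressed libraries (edgeR adjusted p up to 0.13). Both ended with no filter on low counts (0.0572 with vehicle and 0.0526 with auxin). In auxin-treated parental cells the groups overlapped, at 183, 172, 184 and 175 CPM stressed and 165, 186, 186 and 219 CPM unstressed (-0.09 ± 0.10, edgeR adjusted p 0.609).

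YTHDF1, best known as the reader linked to translation, passed in vehicle-treated parental cells. Stressed libraries had 159, 153, 174 and 159 CPM and unstressed ones 216, 209, 175 and 218 CPM, a gap of less than 1 CPM between the nearest libraries (174.4 CPM stressed and 175.1 CPM unstressed). The log2 fold change was -0.34 ± 0.10 (edgeR adjusted p 0.0272), and the call ended without replicate 1, 2 or 4 of either group (edgeR adjusted p up to 0.0992). It also ended with no filter on low counts (0.0543) and with covered T as a covariate and the smallest library left out (-0.22, edgeR adjusted p 0.123), a setting chosen after seeing the data. In the other 3 backgrounds the stressed and unstressed libraries overlapped, with log2 fold changes of -0.04 in tagged cells with auxin, -0.19 in tagged cells with vehicle and -0.10 in parental cells with auxin (edgeR adjusted p 0.957, 0.499 and 0.562).

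By background, 3 of the 10 genes passed in vehicle-treated parental cells (12.9% of all genes tested passed there), 2 in auxin-treated parental cells (10.5%), 2 in vehicle-treated tagged cells (4.04%) and 2 in auxin-treated tagged cells (4.15%). The background counts in parental cells moved with single libraries. With vehicle they lay between 711 genes (without replicate 2 of the stressed) and 2080 (without replicate 3 of the unstressed libraries), and with auxin between 748 (without replicate 1 of the unstressed) and 1922 (without replicate 4 of the stressed). Of the differences in stress effect between backgrounds, 2 were tested in the same fit, and that between auxin and vehicle in parental cells was not tested. The difference between tagged and parental vehicle-treated cells was 0.11 ± 0.16 for YTHDF3, 0.01 ± 0.14 for YTHDF2 and 0.16 ± 0.15 for YTHDF1 (log2, edgeR adjusted p 0.846, 0.982 and 0.77). Between auxin and vehicle in tagged cells it was 0.03 ± 0.16, 0.01 ± 0.14 and 0.15 ± 0.15 (edgeR adjusted p 1 for each). Neither edgeR test called any of the 10 genes, and 0 of the 10 had an unadjusted p under 0.05 in either. Each test called 0% of all genes tested, although 823 and 152 genes had an unadjusted p under 0.05, and DESeq2 called 0 genes in both.

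**Figure D1:**
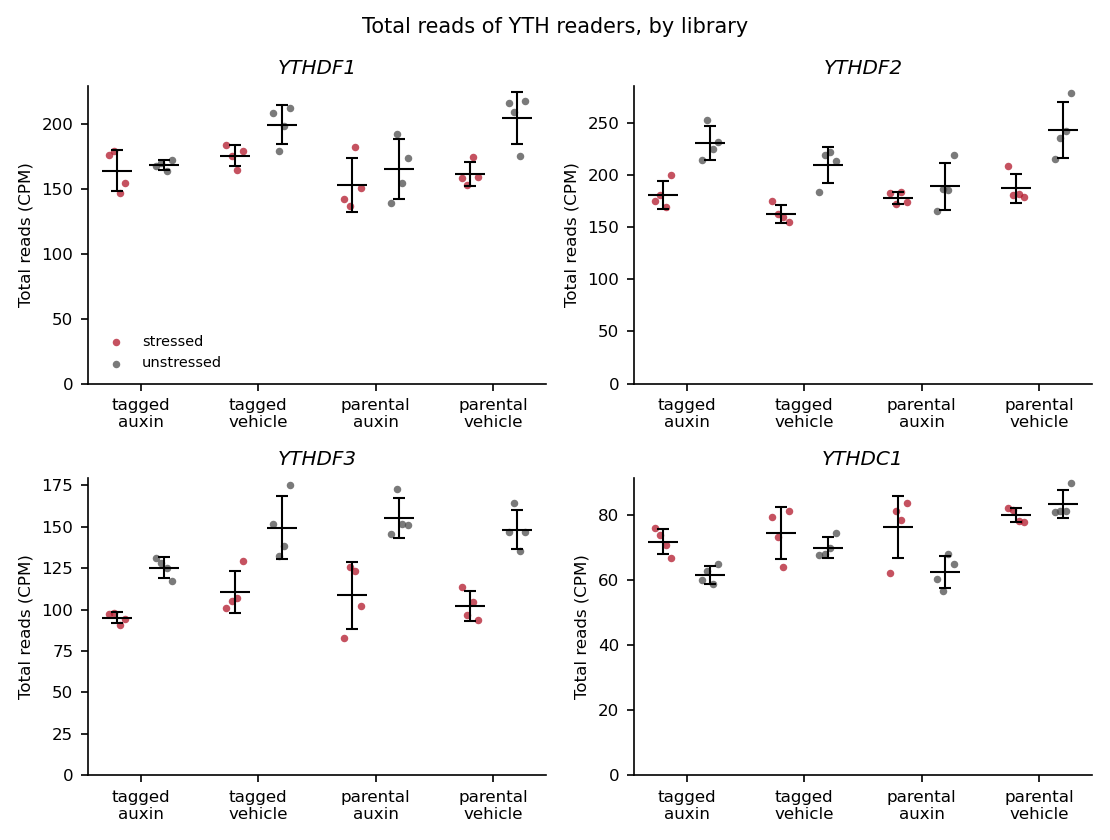
Total reads of YTHDF1, YTHDF2, YTHDF3 and YTHDC1 in CPM (vertical axes, from 0) in each of 32 libraries (points), by line and auxin (horizontal axes), stressed in red to the left and unstressed in grey to the right, with mean and SD of 4 libraries. In all 4 backgrounds the stressed YTHDF3 libraries (82.6 to 130 CPM overall) lay below the unstressed ones of the same background.

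YTHDC1, the nuclear reader, was higher under stress in the average, and of the single backgrounds it passed in auxin-treated parental cells. In auxin-treated parental cells it had 62.2, 81.1, 78.4 and 83.7 CPM stressed and 60.4, 56.6, 67.9 and 65.0 CPM unstressed. The groups overlapped through the smallest library, and the log2 fold change was 0.31 ± 0.10 (edgeR adjusted p 0.0373), or 0.37 ± 0.10 (0.00661) without that library. This call ended without replicate 2, 3 or 4 of the stressed or 1, 2 or 4 of the unstressed libraries (edgeR adjusted p up to 0.11). It also ended with only the compared groups fitted (0.31, edgeR adjusted p 0.529) and with no filter on low counts (0.0778). Tagged cells with auxin had 75.9, 73.9, 70.7 and 66.9 CPM stressed and 60.1, 62.7, 58.8 and 64.8 CPM unstressed, without overlap, but did not pass (0.22 ± 0.10, edgeR adjusted p 0.276). With vehicle the groups overlapped in tagged cells (74.5 ± 7.86 CPM stressed and 70.0 ± 3.18 CPM unstressed, SD, n = 4 each) and in parental cells (80.0 ± 2.21 and 83.4 ± 4.34 CPM). The average over the backgrounds kept its direction in 40 of 40 alternatives and its call in 31. It ended with no filter on low counts (edgeR adjusted p 0.0612) and on leaving out 1 of 8 libraries: replicate 1 or 4 of stressed vehicle-treated tagged cells, replicate 2 of stressed auxin-treated tagged cells, replicate 1 or 2 of unstressed vehicle-treated tagged cells, replicate 4 of stressed auxin-treated parental cells, replicate 2 of unstressed auxin-treated parental cells or replicate 1 of unstressed vehicle-treated parental cells (log2 0.13 to 0.16 over all omissions, edgeR adjusted p up to 0.0556).

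Labelled reads were scaled by the labelled reads of each library, so a change is relative to the typical labelled gene. No member passed for stress in any single background in the reported fit, where 17.2% (parental vehicle), 11.4% (parental auxin), 9.4% (tagged vehicle) and 9.77% (tagged auxin) of 8980 genes did. At an unadjusted p under 0.05 there were 1, 3, 0 and 1 of the 10 genes in the same order, and DESeq2 called 0 in each. Over all 8980 genes there were 2686, 2087, 1859 and 1881 at that unadjusted p. In auxin-treated parental cells YTHDF2 stood at 0.365 (edgeR adjusted p 0.0742), and it passed without the smallest library (0.35, 0.0475). It passed there too with covered T or a principal component as a covariate (edgeR adjusted p 0.0354 and 0.0159). Averaged over the backgrounds, labelled reads of YTHDC1 rose by 0.26 ± 0.10 and of RBM15 by 0.22 ± 0.08, and those of METTL3 fell by 0.30 ± 0.12 (log2, edgeR adjusted p 0.0295, 0.0203 and 0.0406). Without the smallest library YTHDC1 stood at 0.28 and RBM15 at 0.23 (edgeR adjusted p 0.0105 and 0.00646). So 3 of the 10 passed, against 34.6% of all genes tested. METTL14, with 1 to 27 labelled reads a library, stood just past the threshold at -0.57 (edgeR adjusted p 0.0526). It passed without the smallest library (-0.58, edgeR adjusted p 0.0419) and by DESeq2 (-0.59, DESeq2 adjusted p 0.0401). The labelled reads of YTHDF1, YTHDF2 and YTHDF3 stood at 0.02 ± 0.07, 0.02 ± 0.07 and 0.04 ± 0.08 (edgeR adjusted p 0.847, 0.852 and 0.732). When scaled by total reads instead, the median of all genes moved to -0.28, the genes called to 845 higher and 3861 lower (against 1518 higher and 1585 lower), and 6 of the 10 genes passed, all lower. On that scale RBM15 turned to -0.04 (edgeR adjusted p 0.727), YTHDC1 stood at 0.01 (0.942) and METTL3 at -0.55 (0.000115). The RBM15 call ended without replicate 1 of stressed vehicle-treated tagged cells (0.19, edgeR adjusted p 0.0552). The YTHDC1 call ended in 7 of 32 omissions of a single library: replicate 1 of stressed vehicle-treated, stressed auxin-treated, unstressed vehicle-treated or unstressed auxin-treated tagged cells, replicate 3 or 4 of stressed auxin-treated parental cells or replicate 2 of unstressed auxin-treated parental cells (edgeR adjusted p up to 0.0718). For METTL3 the call ended in 19 of 32 omissions of a single library, the smallest library among them (-0.27, edgeR adjusted p 0.0558).

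The labelled share, labelled against other reads of the same gene, moved apart from total reads for the YTHDF genes. YTHDF3 had 31.9%, 39.8%, 31.9% and 39.3% labelled reads in stressed vehicle-treated parental cells, against 34.6%, 30.6%, 34.8% and 30.3% in unstressed ones. In vehicle-treated tagged cells the values were 37.1%, 33.2%, 38.5% and 36.7% stressed and 31.9%, 27.3%, 26.4% and 27.8% unstressed. The groups overlapped in parental cells and not in tagged cells, while over all named genes the labelled percent averaged 11.8% stressed and 12.9% unstressed in parental cells and 11.9% and 12.6% in tagged cells. Relative to the typical gene, the log2 ratio of labelled to other YTHDF3 reads changed by 0.54 ± 0.16 (edgeR adjusted p 0.0144) in parental and 0.79 ± 0.17 (0.000262) in tagged cells with vehicle. With auxin it changed by 0.75 ± 0.17 (0.000897, edgeR adjusted p) in parental and 0.61 ± 0.17 (0.0117) in tagged cells, and without the smallest library the parental value was 0.80 ± 0.17 (edgeR adjusted p 0.0005). On the uncentred scale, where the share of the typical gene fell, 3 of these 4 calls ended. There YTHDF3 stood with vehicle at 0.21 (edgeR adjusted p 0.401) in parental and 0.53 (0.0477) in tagged cells, and with auxin at 0.39 (0.14) in parental and 0.33 (0.243) in tagged cells. In vehicle-treated parental cells this call ended without replicate 2 or 4 of the stressed or 2 of the unstressed libraries (edgeR adjusted p up to 0.0798), and in auxin-treated tagged cells without replicate 1 or 2 of the stressed or 3 of the unstressed ones (up to 0.118). With covered T as a covariate the call in vehicle-treated parental cells ended too (0.47, edgeR adjusted p 0.055). With a limma test of the log2 ratio the calls in vehicle-treated parental and auxin-treated tagged cells ended (limma adjusted p 0.149 and 0.0871). A limma test of the conversion rate, which divides conversions by covered T positions, called YTHDF3 in none of the 4 backgrounds.

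YTHDF2 passed with auxin, in parental cells by 0.58 ± 0.13 (35.5% ± 2.19 labelled stressed and 32.4% ± 3.62 unstressed, edgeR adjusted p 0.000786) and in tagged cells by 0.38 ± 0.12 (34.1% ± 4.54 stressed and 32.7% ± 3.32 unstressed, 0.037). The call in tagged cells ended without replicate 1, 2 or 4 of the stressed or 2 or 4 of the unstressed libraries (edgeR adjusted p up to 0.219). The value in parental cells was 0.59 ± 0.13 (edgeR adjusted p 0.001) without the smallest library. Uncentred, both YTHDF2 calls ended, at 0.22 in parental and 0.10 in tagged cells (edgeR adjusted p 0.333 and 0.709). Counting both genes, 1 of the 10 passed in vehicle-treated parental cells (8.18% of 8980 genes tested passed), 2 in auxin-treated parental cells (8.04%), 1 in vehicle-treated tagged cells (7.03%) and 2 in auxin-treated tagged cells (7.13%), all higher. Averaged over backgrounds 4 passed, all higher, against 28.2% of all genes: YTHDF3 by 0.67 ± 0.08, YTHDF2 by 0.40 ± 0.06, YTHDF1 by 0.22 ± 0.07 and RBM15 by 0.22 ± 0.09 (edgeR adjusted p 2.84e-11, 8.59e-08, 0.0105 and 0.0496). Without the smallest library the first 3 stood at 0.69, 0.41 and 0.24 (edgeR adjusted p 9.56e-12, 5.03e-08 and 0.00703). These changes are relative to a typical gene whose own share fell. Without centring, the median of all genes was -0.36 and 475 genes were called higher and 4415 lower (against 1218 higher and 1317 lower). On that scale YTHDF3 stood at 0.37 (edgeR adjusted p 0.00062), YTHDF2 at 0.09 (0.314), YTHDF1 at -0.08 (0.379) and RBM15 at -0.08 (0.491). WTAP, METTL3 and METTL14 passed there as lower (-0.47, -0.47 and -0.62, edgeR adjusted p 0.000259, 0.00542 and 0.0425). In vehicle-treated parental cells METTL3 also passed as lower on that scale (-0.77, edgeR adjusted p 0.0323). The limma test of the conversion rate called METTL3 lower in the average too (-0.39, limma adjusted p 0.0259). The RBM15 call also ended in 19 of 32 omissions of 1 library, with edgeR adjusted p up to 0.121 (0.0552 without the smallest library).

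On the CPM scale of total reads, YTHDF3 had 65.9 ± 9.98 unlabelled reads in stressed and 100.2 ± 10.9 in unstressed vehicle-treated parental cells, and 36.2 ± 2.21 labelled reads stressed against 48.2 ± 2.93 unstressed. In vehicle-treated tagged cells the unlabelled reads stood at 70.4 ± 8.22 stressed and 107 ± 13.3 unstressed, and the labelled ones at 40.3 ± 5.50 and 42.5 ± 7.07 (SD, n = 4 each). In both lines the unlabelled reads of stressed and unstressed libraries did not overlap. Conversions over the covered T positions of YTHDF3 were 1.97% ± 0.28 stressed and 2.21% ± 0.14 unstressed in parental cells and 2.19% ± 0.20 and 2.15% ± 0.31 in tagged cells with vehicle, so the labelled percent and the conversion rate did not move alike in parental cells.

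**Figure D2:**
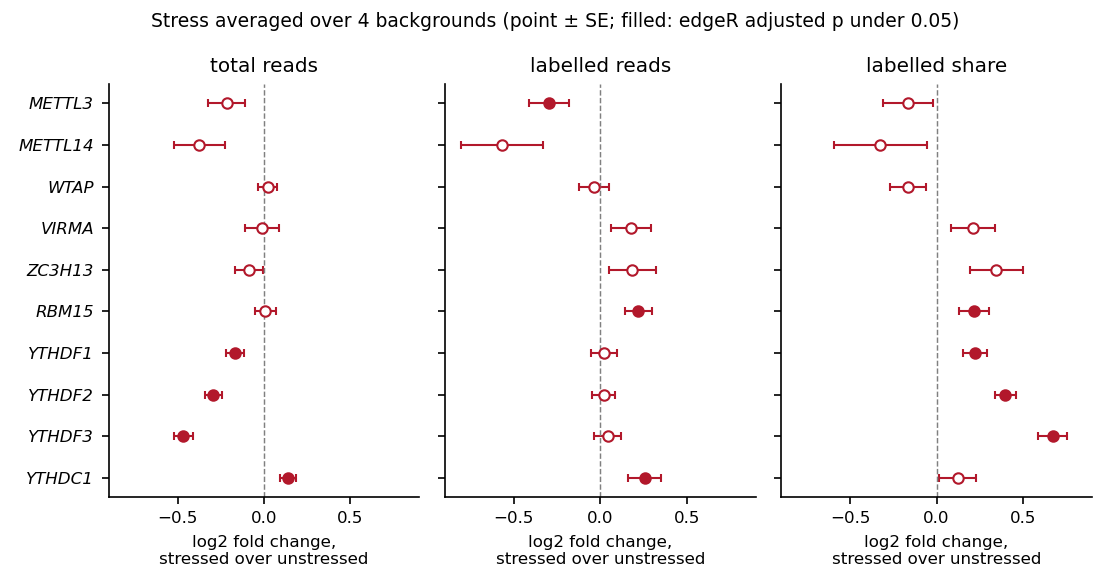
Log2 fold change, stressed over unstressed, averaged over 4 backgrounds (horizontal axes) for the 10 genes (rows) in total reads, labelled reads and the labelled share. Points are estimates with SE and filled points passed an edgeR adjusted p of 0.05. YTHDF3 lies at -0.47 for total reads, 0.04 for labelled reads and 0.67 for the labelled share.

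**Figure D3:**
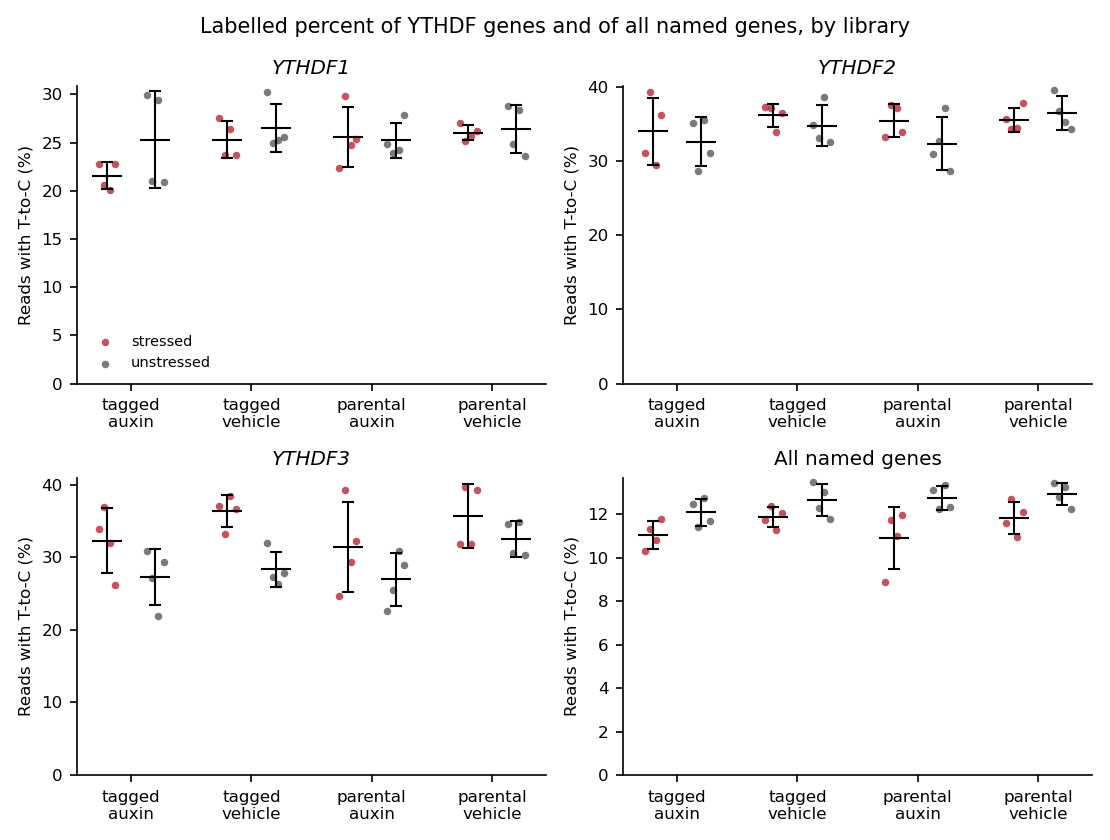
Percentage of reads with a T-to-C conversion (vertical axes, from 0) for YTHDF1, YTHDF2, YTHDF3 and all named genes in each library (points), by line and auxin, stressed in red to the left and unstressed in grey to the right, with mean and SD of 4 libraries. In vehicle-treated tagged cells YTHDF3 averaged 36.4% stressed and 28.4% unstressed, while all named genes averaged 11.9% and 12.6%.

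None of the 6 writer subunits passed for total reads with stress, in any background or in the average, in the edgeR fit of all 32 libraries. METTL14 had the widest range of group means. Its libraries had 7.10, 6.25, 7.03 and 11.9 CPM in stressed and 14.3, 17.8, 12.5 and 8.75 CPM in unstressed vehicle-treated parental cells, which overlapped through replicate 4 of each group (-0.70 ± 0.27, edgeR adjusted p 0.0874). Averaged over the backgrounds it stood at -0.38 ± 0.15 (edgeR adjusted p 0.0671), and at -0.42 ± 0.14 (0.0165) without the smallest library. It also passed in the average without replicate 4 of stressed vehicle-treated, replicate 2 of unstressed auxin-treated or replicate 4 of unstressed vehicle-treated parental cells, or replicate 4 of stressed auxin-treated tagged cells (edgeR adjusted p 0.0294, 0.0302, 0.042 and 0.044). Without replicate 4 of the stressed libraries it passed in vehicle-treated parental cells too (-0.96, edgeR adjusted p 0.037). The catalytic partner METTL3 stood in the average at -0.22 ± 0.11 (0.161, edgeR adjusted p), or -0.17 ± 0.07 (0.0705) without the smallest library, with group means of 31.0 to 39.9 CPM stressed and 39.3 to 45.8 CPM unstressed. The lowest of these means held the smallest library, at 6.35 CPM from 5 reads, against 37.7 to 42.4 CPM in its group mates. With covered T as a covariate, chosen after seeing the data, METTL14 and METTL3 both passed in the average (-0.40 and -0.21, edgeR adjusted p 0.014 and 0.0183). They also passed with a principal component as a covariate (-0.35 and -0.29, edgeR adjusted p 0.0314 and 0.000784). Both covariates also called more of all genes in that average.

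The group means of the adaptor WTAP lay between 60.4 and 68.7 CPM stressed and between 60.8 and 68.4 CPM unstressed (0.02 ± 0.06, edgeR adjusted p 0.848). RBM15 lay between 83.1 and 106 CPM stressed and between 86.4 and 102 CPM unstressed (0.01 ± 0.06, 0.953, edgeR adjusted p). ZC3H13 lay between 32.1 and 36.1 CPM stressed and between 34.8 and 37.4 CPM unstressed (-0.08 ± 0.08, edgeR adjusted p 0.517). The scaffold VIRMA spread widely within groups, for example 58.1 to 75.5 CPM in stressed and 41.0 to 74.2 CPM in unstressed vehicle-treated parental cells, and stood at -0.01 ± 0.10 (edgeR adjusted p 0.955).

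**Figure D4:**
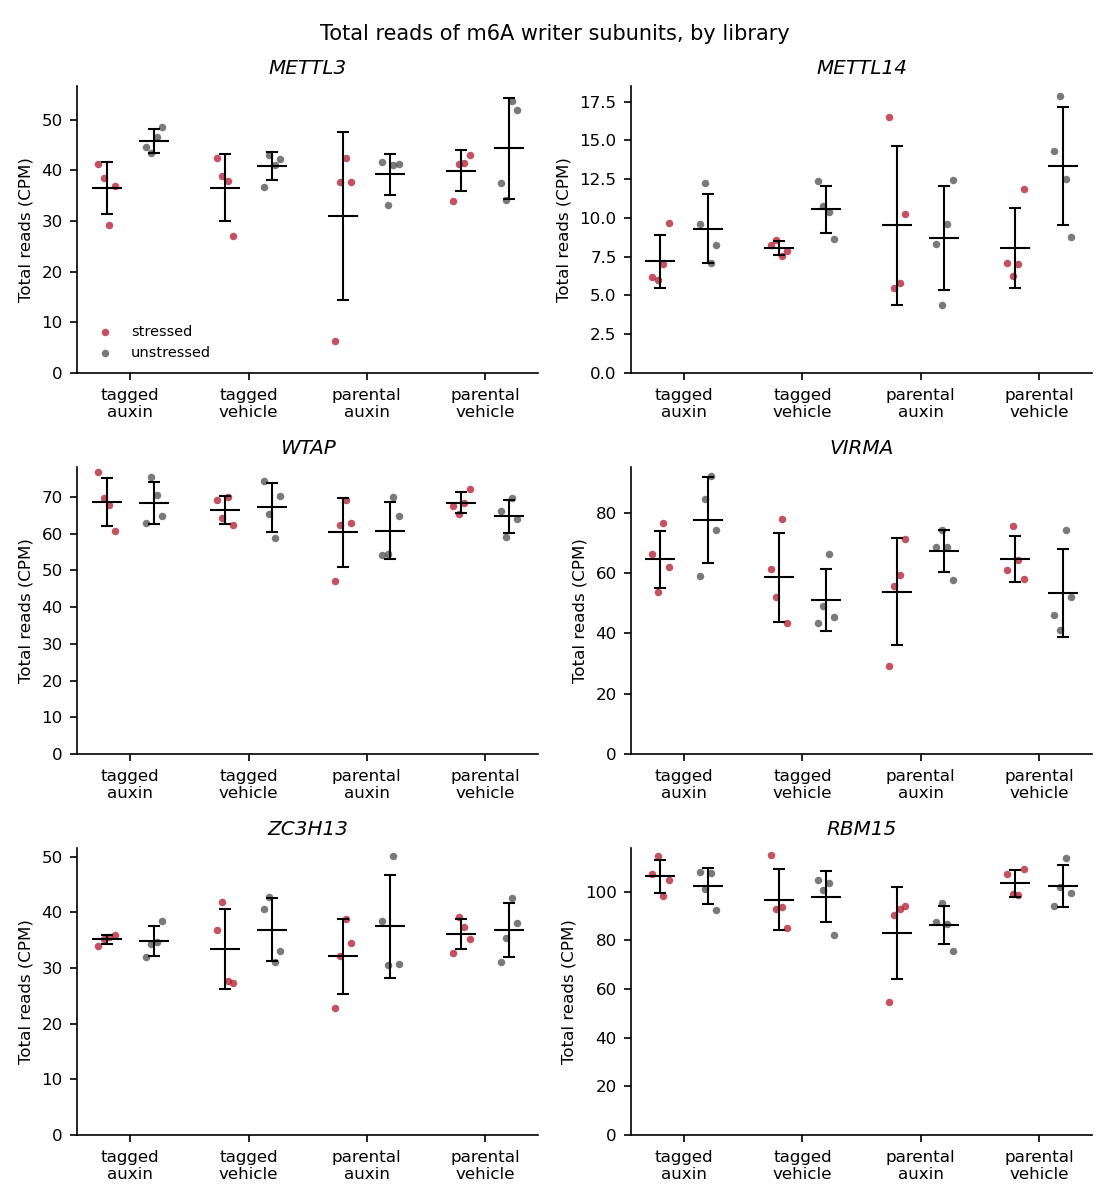
Total reads of METTL3, METTL14, WTAP, VIRMA, ZC3H13 and RBM15 in CPM (vertical axes, from 0) in each of 32 libraries (points), by line and auxin, stressed in red to the left and unstressed in grey to the right, with mean and SD of 4 libraries. The smallest library is the low point of METTL3 (6.35 CPM), RBM15 (54.6 CPM) and VIRMA (29.2 CPM) in stressed auxin-treated parental cells.

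All 10 mRNAs were labelled more than the typical gene. In unstressed vehicle-treated parental cells the conversion rate of WTAP was 3.17% ± 0.58, of RBM15 3.04% ± 0.31, of YTHDF2 2.96% ± 0.34, of METTL14 2.92% ± 1.33 and of METTL3 2.72% ± 0.67. YTHDC1 had 2.55% ± 0.21, YTHDF1 2.37% ± 0.32, YTHDF3 2.21% ± 0.14, VIRMA 1.99% ± 0.44 and ZC3H13 1.96% ± 0.44 (SD, n = 4 each). The median of the 8980 genes tested was 1.53%, and the genes lay between percentile 62 (VIRMA) and percentile 86.1 (WTAP). Neighbours in this order differed by less than the larger of their SDs. Every library received s4U, so the rate of T-to-C reads without it was not measured.

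WTAP was read at another 3′ end besides the one counted above. Its full-length transcripts end in a 3′ UTR at chr6:159755609-159756317, and shorter transcripts end upstream, in a 3′ UTR at chr6:159748371-159749415 (GENCODE 29, plus strand). The upstream end had 33.7 to 68.8 reads per 100 reads of the full-length end over the 32 libraries (median 47.4). It was less labelled in 32 of 32 libraries, with a median of 21.4% labelled reads against 34.1% at the full-length end, and it had fewer reads (14 to 212 against 37 to 499 a library). In stressed vehicle-treated parental cells the labelled percent was 21.7% ± 7.64 at the upstream end and 31.1% ± 2.07 at the full-length end, and in unstressed ones 26.6% ± 2.5 at the upstream and 39.7% ± 3.86 at the full-length end (SD, n = 4 each). The conversion rate, which counts covered T positions rather than reads, was lower at the upstream end in 32 of 32 libraries as well. Whether the ends' use differed between groups was not tested.

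**Figure D5:**
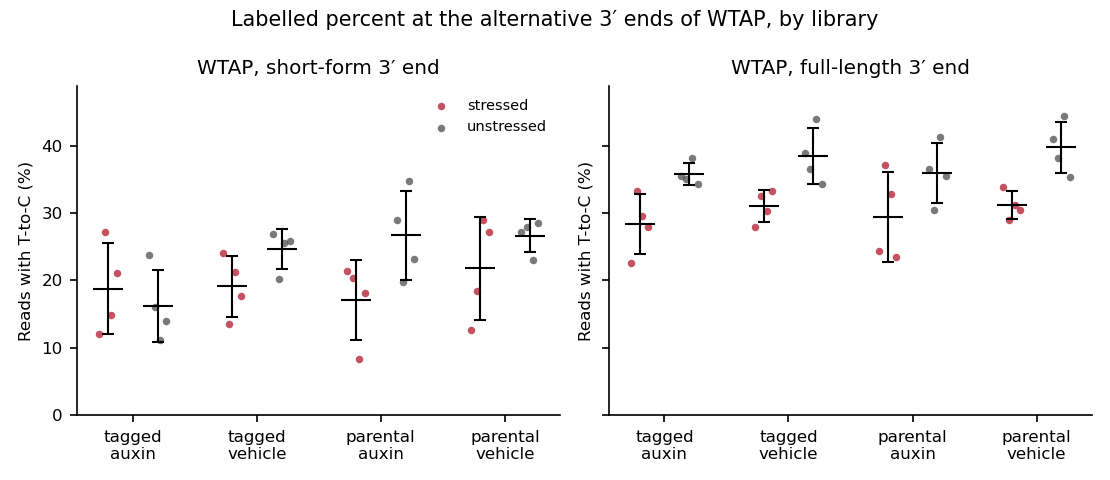
Percentage of reads with a T-to-C conversion (vertical axis, from 0) at the upstream 3′ end of short WTAP transcripts (left) and at the full-length 3′ end (right) in each of 32 libraries (points), by line and auxin, stressed in red to the left and unstressed in grey to the right, with mean and SD of 4 libraries. The upstream end was less labelled than the full-length end in 32 of 32 libraries.

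Auxin in tagged cells, which is meant to remove IGF2BP3, moved none of the 10 genes past the threshold in any reading, unstressed or stressed, in the reported edgeR fits of all 32 libraries. For total reads, 0.679% of all genes tested passed in unstressed and 0.0179% in stressed tagged cells. At an unadjusted p under 0.05 there were 3 and 0 of the 10 genes, and 2230 and 1529 of all 11186 genes tested. DESeq2 called 0 of the 10 in either. The 3 were VIRMA, YTHDF1 and YTHDF3. VIRMA stood at 77.5 ± 14.3 CPM with auxin and 51.1 ± 10.4 CPM with vehicle (0.60 ± 0.20, edgeR adjusted p 0.101), and it passed with only the compared groups fitted (0.61, 0.00852). A principal component as a covariate raised the calls over all genes in averaged stress. With it all 3 passed here (edgeR adjusted p 0.00027 for VIRMA, 0.0374 for YTHDF1 and 0.0384 for YTHDF3). YTHDF1 stood at -0.25 ± 0.10 (edgeR adjusted p 0.193) and YTHDF3 at -0.26 ± 0.11 (0.205) in the same comparison. YTHDF1 had 168, 170, 164 and 172 CPM with auxin against 208, 179, 198 and 212 CPM with vehicle, without overlap. For labelled reads 0.2% of genes passed in unstressed and 0% in stressed tagged cells, and for the labelled share 0% in either.

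Parental cells, which have no degron, served as the control for auxin itself, and there 2 readers passed in unstressed cells. YTHDC1 had 60.4, 56.6, 67.9 and 65.0 CPM with auxin, against 81.0, 81.4, 81.3 and 89.9 CPM with vehicle, without overlap (-0.42 ± 0.10, edgeR adjusted p 0.0123). The same auxin-treated libraries were the reference of the YTHDC1 stress call in auxin-treated parental cells, so these calls are not independent. YTHDF2 had 165, 186, 186 and 219 CPM with auxin and 216, 235, 242 and 279 CPM with vehicle, which overlapped (-0.36 ± 0.10, edgeR adjusted p 0.024). In this comparison 7.2% of all genes tested passed, 805 genes, and between 43 (without replicate 2) and 1503 (without replicate 3 of the vehicle libraries) with single libraries left out. The libraries also differed in the T positions covered per read, 22.9 ± 0.36 with auxin and 21.3 ± 1.02 with vehicle. With covered T as a covariate, chosen after seeing the data, YTHDF2 stood at -0.38 (edgeR adjusted p 0.006) and YTHDC1 at -0.48 (0.00165). With the smallest library left out as well, YTHDF2 stood at -0.46 (edgeR adjusted p 0.00656) and YTHDC1 at -0.41 (0.0658). The YTHDC1 call also ended without replicate 1 of the auxin or 2 or 4 of the vehicle libraries (edgeR adjusted p up to 0.0546), and the YTHDF2 call without replicate 1 or 3 of the auxin or 2 or 4 of the vehicle libraries (up to 0.103). In stressed parental cells no member passed in the reported fit (0.0179% of all genes did, 2 genes, against 828 without replicate 4 of the stressed auxin-treated libraries). With a principal component as a covariate METTL3, RBM15 and VIRMA passed there as lower (-0.52, -0.35 and -0.46, edgeR adjusted p 0.00794, 0.00444 and 0.00763). For labelled reads and the labelled share no member passed in the reported edgeR fits in parental cells either, where 0.612% and 0.212% of genes passed unstressed and 0.0111% and 0% stressed. YTHDF2 came nearest, with labelled reads at -0.49 ± 0.13 in unstressed cells (edgeR adjusted p 0.0583). It passed with only the compared groups fitted (-0.47, edgeR adjusted p 0.016) and without replicate 3 of the vehicle libraries (-0.51, 0.0354). It also passed with covered T or a principal component as a covariate (edgeR adjusted p 0.0358 and 0.00134). With the principal component the labelled reads of YTHDC1 passed too (-0.53, edgeR adjusted p 0.0459).

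The auxin effect in tagged cells minus that in parental cells was tested directly. In the reported edgeR fit no member passed in unstressed (0.0179% of all genes passed for total reads) or stressed cells (0%). At an unadjusted p under 0.05 there were 1 and 2 of the 10 genes, and 666 and 2430 of all 11186 genes tested. In stressed cells the count over all genes was 1045 when replicate 4 of stressed parental cells with auxin was left out, and no member passed there either. The largest such difference was that of YTHDF2 in unstressed cells, 0.50 ± 0.14 with an edgeR adjusted p of 0.327 (DESeq2 called it), made of 0.14 ± 0.10 in tagged and -0.36 ± 0.10 in parental cells. It also passed with covered T, chosen after seeing the data, or a principal component as a covariate (edgeR adjusted p 0.0191 and 0.00979). With the principal component METTL3, RBM15 and VIRMA passed as higher in stressed cells (0.52, 0.48 and 0.62, edgeR adjusted p 0.047, 0.00313 and 0.00618). YTHDF3 passed there as lower (-0.35, edgeR adjusted p 0.0426). YTHDF3 stood at -0.32 ± 0.16 unstressed and -0.33 ± 0.16 stressed (edgeR adjusted p 0.838 and 0.229). Tagged against parental cells, averaged over the 4 states, gave no call either (3.38% of all genes passed for total reads, 0.835% for labelled reads and 0.156% for the share), with YTHDC1 at -0.12 ± 0.05 (edgeR adjusted p 0.198) and YTHDF3 at -0.10 ± 0.06 (0.433).

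A list of 29 further genes, chosen with earlier results of these data known, of the pathway held accessory writers, erasers, other readers, other adenosine methyltransferases, enzymes of S-adenosylmethionine supply and effectors of the readers, and 28 were tested for total reads. Averaged over backgrounds, 2 rose with stress and 1 fell, 3 of 28, against 21.9% of all genes tested. METTL4, an adenosine methyltransferase, rose by 0.53 ± 0.16 and SRSF10, a splicing factor that YTHDC1 acts on, by 0.26 ± 0.06 (log2, edgeR adjusted p 0.0117 and 0.000828). MAT2A, which makes S-adenosylmethionine, the methyl donor, fell by 0.47 ± 0.12 (edgeR adjusted p 0.00447). The median of the list was 0.02 and that of all genes tested 0.01. In single backgrounds, METTL4 passed in vehicle-treated parental cells (7.01 ± 0.73 CPM stressed and 3.31 ± 0.77 CPM unstressed), and CNOT1, the scaffold of the deadenylase that YTHDF2 recruits, and SRSF10 passed in auxin-treated parental cells (280 ± 150 CPM stressed against 186 ± 5.84 CPM unstressed for CNOT1, 153 ± 33.1 against 118 ± 4.04 CPM for SRSF10). Neither call held without the smallest library (0.14 for CNOT1 and 0.22 for SRSF10, edgeR adjusted p 0.302 and 0.163) or with only the compared groups fitted (0.532 and 0.506).

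Of the 24 tested for labelled reads, 5 rose and 2 fell in the average, 7 of 24, against 34.6% of all genes tested. The IGF2BP readers IGF2BP2 and IGF2BP3 rose by 0.39 ± 0.07 and 0.32 ± 0.08, CNOT1 by 0.38 ± 0.09, the accessory writer RBM15B by 0.32 ± 0.11 and the reader HNRNPC by 0.24 ± 0.08 (edgeR adjusted p 5.27e-06, 0.0018, 0.000979, 0.0129 and 0.00903). ALKBH5, an m6A eraser, fell by 0.34 ± 0.10 and MAT2A fell by 0.32 ± 0.12 (edgeR adjusted p 0.00648 and 0.0308). When scaled by total reads, 0 of the 5 passed as higher, HNRNPC stood at -0.01 and the other 4 at 0.06 to 0.14, while ALKBH5 and MAT2A stayed called (-0.59 and -0.57, edgeR adjusted p 3.61e-06 and 3.96e-05). In single backgrounds METTL5, an rRNA methyltransferase, and SRSF3 rose and UPF1, a decay factor, fell in vehicle-treated parental cells. That was 3 of 24, against 17.2% of all genes tested. When scaled by total reads, neither rise stayed called, while the fall did. IGF2BP3 rose in auxin-treated parental cells, a call that ended without the smallest library (0.39, edgeR adjusted p 0.0952), IGF2BP2 rose in vehicle-treated tagged cells and MAT2A fell in auxin-treated tagged cells. For total reads IGF2BP3 stood at 0.12 ± 0.05 (edgeR adjusted p 0.127). By labelled share 7 rose and 2 fell relative to the typical gene, 9 of 24, against 28.2% of all genes tested: TRMT112, a cofactor of several methyltransferases, by 0.39 ± 0.06, RBM15B by 0.36 ± 0.11, the splicing factor SRSF3 by 0.33 ± 0.06, IGF2BP2 by 0.31 ± 0.06, HNRNPC by 0.29 ± 0.07, CNOT1 by 0.26 ± 0.08 and IGF2BP3 by 0.25 ± 0.08, while ALKBH5 fell by 0.29 ± 0.10 and SRSF10 fell by 0.22 ± 0.09 (edgeR adjusted p 1.35e-08 to 0.0454). Uncentred, 0 of the 7 passed as higher, and they stood between -0.06 (IGF2BP3) and 0.08 (TRMT112), with CNOT1 at -0.05 and HNRNPC at -0.02. On that scale ALKBH5 and SRSF10 stayed called (-0.60 and -0.53, edgeR adjusted p 2.39e-06 and 2.93e-06). The SRSF10 share call ended without the smallest library (-0.18, edgeR adjusted p 0.0899). The median share change of the list was -0.03, against -0.06 for all genes. In single backgrounds the share of 2 of the 24 rose in vehicle-treated parental cells (8.18% of all genes tested passed in either direction). In auxin-treated parental, vehicle-treated tagged and auxin-treated tagged cells 1 rose in each (8.04%, 7.03% and 7.13%). Uncentred, 0 of these calls stayed. In total reads, auxin in unstressed parental cells gave a rise of RIDA, which bridges YTHDF2 to RNase P/MRP (1.02 ± 0.29, edgeR adjusted p 0.032). NXF1, an mRNA export factor, fell there (-0.45 ± 0.12, edgeR adjusted p 0.025). So 1 of the 28 rose and 1 fell, against 7.2% of all genes tested in either direction. Auxin in tagged cells gave no call in the list.

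For METTL14, the member with the widest range of group means (0.89 on the log2 scale), the 5 tested genes with the most similar pattern were NRF1, DDX28, MAP3K11, MRGBP and NUP62. Their Pearson r with METTL14 over the 8 group means of log2 CPM was 0.989, 0.982, 0.98, 0.977 and 0.975, the highest of 11186 genes. The 8 means share libraries, depth and the covered T per read, and the values describe these groups only. METTL14 itself passed no test in the reported edgeR fits of all 32 libraries, though it passed in some alternatives.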

How the data were processed

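The 32 libraries were 3′ SLAM-seq libraries, 4 in each of 8 groups. Per the file headers, the authors deposited Slamdunk tables of raw counts per transcript region: reads, reads with T-to-C conversions, covered T positions and conversions. The build is hg38, per the submitters' processing notes. The threshold for a converted read and the annotation release are not given in the sources used here. Region length and T content are other deposited columns, per the file headers.

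Of 95582 transcript regions per file, curated RefSeq identifiers were paired with gene names for 40006 of 40767 and predicted ones for 6326 of 33066. Regions without a name held 36.9% to 43.5% of a library's counts and were left out. Each gene was represented by its region with the most reads. Library totals of named-gene reads, 0.987 M to 6.98 M, limit the precision of genes with few reads. None of the 48 pairs of libraries within a group agreed within sampling noise.

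Total reads (11186 genes tested), labelled reads (8980) and labelled against other reads (8980) were each fitted over all 32 libraries with edgeR 4.0.16 (R 4.3.3) by the quasi-likelihood F-test with TMM scaling, for 14 comparisons, with Benjamini-Hochberg adjustment over all genes tested. The labelled share was centred on the typical gene. The scripts were tested on simulated data. Alternatives used limma 3.58.1 (pseudocount 0.5), DESeq2 1.42.0, other scalings, filters, covariates, a replicate block and the omission of each library. The samples were named by label alone. In unstressed vehicle-treated tagged cells the labels of replicates 1 and 2 repeat the name of the tag. The members, the pathway list and the tests were chosen with earlier results of these data known. All members are named, as are pathway genes past the threshold (at most 10 a comparison, by smallest p), and the 5 genes most like the member with the widest range of group means. Pathway genes past the threshold for the labelled share in single backgrounds are counted but not named.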

Additional observations from a re-analysis of the deposited data

Results flagged for a closer look

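In 9 of 160 groups of 4 libraries, 1 library lay far from the other 3, by the gap to its neighbour over the group's range. Chance gives about 1 in 20 such groups. The smallest library, replicate 1 of stressed auxin-treated parental cells, had 6.35 CPM of METTL3, against 37.7 to 42.4 CPM in the other 3, and 54.6 CPM of RBM15, against 90.6 to 94.2 CPM. In total reads, METTL3 had 33.2 CPM in replicate 2 of unstressed auxin-treated parental cells (others 41.0 to 41.6), and METTL14 had 11.9 CPM in replicate 4 of stressed vehicle-treated parental cells (others 6.25 to 7.10). YTHDF2 had 209 CPM in replicate 1 of stressed vehicle-treated parental cells (others 179 to 182). YTHDC1 had 89.9 CPM in replicate 4 of unstressed vehicle-treated parental cells (others 81.0 to 81.4). In labelled percent, METTL3 had 36.8% in replicate 3 of unstressed auxin-treated tagged cells (others 24.3% to 26.0%), VIRMA had 30.1% in replicate 4 of unstressed auxin-treated parental cells (others 19.6% to 20.5%), and YTHDF1 had 30.3% in replicate 1 of unstressed vehicle-treated tagged cells (others 25.0% to 25.6%).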

How the results depend on the processing

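Of 962 alternative counts of members called, 881 were within 1.5 times the reported count and 81 were not. Most reported counts were 0, and the rule compares counts and not the genes or directions behind them. The averaged share without centring kept its count, for example, though WTAP, METTL3 and METTL14 passed as lower there and YTHDF1, YTHDF2 and RBM15 did not pass. Averaged over backgrounds, YTHDF1, YTHDF2 and YTHDF3 kept their lower total reads and their calls in 40 of 40 alternatives each, and YTHDF3 its higher labelled share in 40 of 40. With only the compared groups fitted, total-read stress in auxin-treated parental cells gave 0 members, auxin in unstressed tagged cells 1, and labelled reads with auxin in unstressed parental cells 1. Same-numbered samples did not deviate together (median r 0.02 over 112 pairs), and a replicate block moved total-read stress in auxin-treated tagged cells to 1. A principal component covariate gave 5 and 4 members for total-read stress in vehicle- and auxin-treated parental cells, 3 for auxin in unstressed tagged cells, 5 and 3 for auxin in unstressed and stressed parental cells, and 1 and 4 for the tag-dependent auxin effect unstressed and stressed; for labelled reads it gave 1 for stress in auxin-treated parental cells and 2 for auxin in unstressed parental cells. Covered T as a covariate, chosen after seeing the data, gave 5 for total reads with auxin in unstressed parental cells (1 without the smallest library), 1 for the tag-dependent effect unstressed (1 also without it), and 1 for tagged against parental cells without it. For labelled reads it gave 1 for stress in auxin-treated parental cells (1 also without the smallest library), 1 for auxin in unstressed parental cells and, without that library, 1 for the tag-dependent effect unstressed. For the share it gave 0 for vehicle-treated parental cells (0 also without the smallest library) and 1 for auxin-treated tagged cells without it. DESeq2 gave 1 for the tag-dependent total-read effect unstressed and 1 for labelled reads with auxin in unstressed parental cells. No filter gave 1, 1 and 0 for total-read stress in auxin-treated parental, vehicle-treated tagged and auxin-treated tagged cells. Labelled reads scaled by total reads gave 2 in vehicle-treated parental cells and 6 in the average, where RBM15 reversed to -0.0375. Without centring, the share gave 0 in auxin-treated parental and 0 in auxin-treated tagged cells, and in the average RBM15 reversed to -0.0832 and YTHDF1 to -0.0845. The limma ratio gave 0 in vehicle-treated parental cells, 0 in auxin-treated tagged cells and 2 in the average, and the limma conversion rate 0 in each of the 4 backgrounds. The cause was not tested for these. With single libraries omitted, total-read stress gave 1 to 3 members in vehicle-treated and 1 to 2 in auxin-treated parental cells, 0 to 1 in vehicle-treated and 0 to 1 in auxin-treated tagged cells, and auxin in unstressed parental cells 0 to 3. Labelled reads gave 1 to 4 in the average, 0 to 1 for auxin in unstressed parental cells and 0 to 1 for stress in auxin-treated parental cells. The share gave 0 to 1 in vehicle-treated parental, 1 to 2 in vehicle-treated tagged and 0 to 2 in auxin-treated tagged cells. Over all genes, the averaged total-read stress effect called 2447 genes, 4098 with the principal component and 3716 with covered T. The total-read member counts with these covariates stand beside those larger numbers, given here for the average only. For the other comparisons the share of all genes called with a covariate is not given. The member counts there cannot be set against it. Averaged labelled reads called 3103 genes, 4706 when scaled by total reads (845 higher and 3861 lower), and the averaged share 2535, 4890 without centring (475 higher and 4415 lower). METTL14, with 13 to 82 reads a library, had too few reads to show small changes.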

Other observations

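Other counted regions of the same genes were labelled differently. For ZC3H13, another transcript had 327 reads over all libraries, 50.8% of them labelled, and the counted one 4214 reads, 24.0% labelled. For VIRMA, the shorter transcript had 380 reads, 33.2% labelled, and the counted one 7390 reads, 18.8% labelled. The differences were not tested.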
